A study of Schizosaccharomyces pombe with 8 samples.

Results

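Of 1528 noncoding rows counted in the fission yeast Schizosaccharomyces pombe, 812 lie antisense to a protein-coding gene. They were chosen from coordinates alone: the span of each overlaps, by at least 1 base, a coding row on the opposite strand and no coding row on its own strand. The rule also set aside 3 named features, none of which would have qualified. The other noncoding rows either overlap no coding row (426) or overlap one on their own strand (290). An antisense feature here is a row with a systematic SPNCRNA name, and the gene it faces over the longest stretch is called its opposite gene. The 812 features face 761 different opposite genes, and 99 of them share that gene with another feature. They lie on chromosomes I (362), II (296) and III (154). Their length ran from 76 to 5317 bases with a median of 1260, and the overlap with the opposite gene from 1 to 4984 bases with a median of 944.5. By position, 305 reach past the 5′ end of the opposite gene, 186 reach past its 3′ end, 218 lie inside it and 103 span all of it.

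Antisense transcription is common in fission yeast, where genes lie close together and many transcripts run through a gene from its far side. In wild-type cells much of this RNA is kept low by RNA interference, the exosome and chromatin factors such as histone deacetylases and chaperones. Some antisense RNAs of meiotic genes are known to be made in growing cells. INO80 is a complex that remodels nucleosomes and exchanges histone variants, and Nht1, Iec1 and Iec5 are subunits of it.

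Data came from 8 libraries in 4 groups of 2. The groups are the wild-type strain SPJ1577 and the strains CS2354 (nht1 deletion), CS2379 (iec1 deletion) and CS2370 (iec5 deletion), all grown to mid-log phase in the rich medium YEA. Libraries were made with a directional kit after removal of ribosomal RNA. Nothing in the labels says whether the 2 libraries of a group came from separate cultures, so p-values measure the spread between these libraries. Coding totals ran from 2208165 to 3426063 counts, and the antisense features held 192598 to 301352 counts, or 50.2% to 56.6% of the noncoding counts of a library. CPM (counts scaled by the normalised coding library size, as edgeR gives it) is the unit of level used throughout, and 3 counts equal 0.875 to 1.38 CPM. The iec5 gene had 12.4 and 12.8 CPM in wild type and 3.29 and 1.46 in the iec5 libraries. The iec1 gene went against its label, with 40.5 and 36.4 CPM in wild type and 95.4 and 88.4 in the libraries labelled iec1, so directions below are given for libraries labelled iec1, not for loss of the gene, and the 3 strains are called by their labels. The nht1 gene had 48.6 and 41.6 CPM in wild type and 24.8 and 34.9 in the nht1 libraries, a difference that did not pass (log2 fold change -0.60, SE 0.24, edgeR adjusted p = 0.212). Which part of each gene was removed is not stated in the labels.

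Short stretches of sequence show where an antisense feature leaves or meets an annotated neighbour, and are referred to with the results. They were read from RefSeq on build ASM294v3, by the annotated ends of the same systematic names, along the strand of the feature and from 5′ to 3′. Of 780 antisense features matched there, 778 have the same start and end as in the files, which use ASM294v2. In the first 3, capitals mark the 30 bases that also belong to the opposite gene, and lower case marks the 90 bases that do not, by the RefSeq annotation. In the files the row of SPBPB7E8.02 starts 9 bases earlier than in RefSeq, so 9 of the lower-case bases of SPNCRNA.1607 belong to that row, and no other coding row lies in the printed stretches outside the opposite genes. They are SPNCRNA.1292 across the end of SPCC70.08c (III:2367714-2367833, plus strand), SPNCRNA.793 across the end of obr1 (I:2094020-2094139, plus strand) and SPNCRNA.1607 across the start of SPBPB7E8.02 (II:3498307-3498426, minus strand). The first 2 are shown because each spans a gene and rose in all 3 comparisons with wild type, and SPNCRNA.1607 because it rose more than its opposite gene. The last is the 300 bases at the 5′ end of SPNCRNA.1487 (II:2121085-2121384, minus strand), all outside its opposite gene mag2, with the 144 bases of the small nucleolar RNA gene snR92, which is annotated on the other strand, in capitals.
SPNCRNA.1292: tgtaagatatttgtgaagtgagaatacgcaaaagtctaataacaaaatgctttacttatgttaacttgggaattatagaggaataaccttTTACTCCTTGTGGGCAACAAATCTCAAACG
SPNCRNA.793: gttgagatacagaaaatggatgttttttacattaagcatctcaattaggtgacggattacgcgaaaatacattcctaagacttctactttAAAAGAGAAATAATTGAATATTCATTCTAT
SPNCRNA.1607: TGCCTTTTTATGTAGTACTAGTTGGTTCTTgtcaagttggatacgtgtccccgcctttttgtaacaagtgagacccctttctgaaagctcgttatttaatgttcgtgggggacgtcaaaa
SPNCRNA.1487: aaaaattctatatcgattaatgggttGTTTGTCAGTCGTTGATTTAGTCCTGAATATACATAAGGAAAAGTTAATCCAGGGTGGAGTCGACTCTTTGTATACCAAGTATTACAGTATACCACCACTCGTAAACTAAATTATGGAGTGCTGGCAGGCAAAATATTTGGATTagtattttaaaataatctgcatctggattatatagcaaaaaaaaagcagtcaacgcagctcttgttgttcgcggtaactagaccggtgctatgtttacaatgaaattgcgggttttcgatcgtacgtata

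The counts over most antisense features could not be told apart from reads of the opposite gene. In the coding table, all 211 rows that lie inside a coding row of the opposite strand had 0 counts in all 8 libraries, as did all 233 rows whose every base is also in another coding row. Among 2523 coding rows that share no base with another, 20 had 0 counts. The noncoding table behaved alike: 28 of 28 antisense features whose every base is also in another noncoding row had 0 counts. All 32 antisense features with 0 counts are among the 183 that overlap another noncoding row on either strand, and none is among the 629 that overlap none. Rows on opposite strands were therefore treated as rows that share reads, although the kit keeps strand. A read over an antisense feature and its opposite gene was counted in both tables, since each table holds only 1 of them.

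How many counts the opposite genes alone would place on a feature was computed from their own counts per base over the shared stretch. This could be judged for 633 features, which had at least 200 such counts and opposite genes with at least 100 bases of their own. The ratio of observed to computed counts had a median of 1.08, with 0.792 at the 10th and 1.40 at the 90th percentile. It lay between 0.8 and 1.25 for 423 features (66.8%) and between 0.5 and 2 for 586 (92.6%). Features that span a gene had a median ratio of 1.02 (85 judged), and features inside a gene 1.12 (179 judged). SPNCRNA.793, which spans obr1, had 32078 counts over the 8 libraries where obr1 alone would give 29880, though 1367 of its 2324 bases, such as the lower-case bases printed above, lie outside obr1. The ratio for SPNCRNA.1292 was 1.10. Of the 34 features at 0.5 or less, 11 overlap another noncoding row. A change given below is thus a change of the reads over the span of a feature, on either strand, and antisense RNA was not measured apart from sense RNA in these features.

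**Figure D1:**
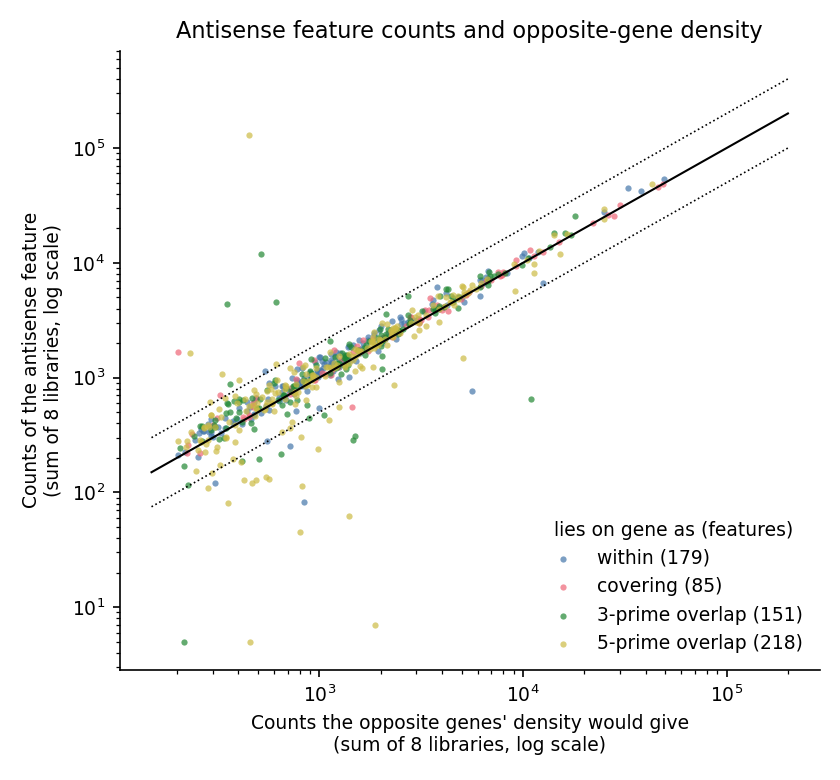
Counts of 633 antisense features, summed over 8 libraries (vertical, log scale), against the counts that the density of their opposite genes would give over the shared bases (horizontal, log scale). Each point is a feature, coloured by how it lies on the gene; the solid line marks equality and the dotted lines 0.5 and 2 times. Most points follow the solid line, with 586 between the dotted lines, and rrk1 stands highest above it.

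Reads over antisense features rose more often than they fell in the 3 strains compared with wild type, mostly in the libraries labelled iec1. A filter on low counts left 732 of the 812 features for testing. In the nht1 libraries 46 features rose and 8 fell against wild type, by the edgeR quasi-likelihood test at a Benjamini-Hochberg adjusted p under 0.05 over all 1096 noncoding rows tested. Against wild type the libraries labelled iec1 had 107 rises and 18 falls, and the iec5 libraries 9 rises and 4 falls. Over all noncoding rows tested, 5.29% rose and 1.28% fell in nht1 (6.57% called), 12.3% and 2.37% in the libraries labelled iec1 (14.7%) and 1.0% and 0.456% in iec5 (1.46%). Of the antisense features themselves 7.38%, 17.1% and 1.78% were called. Among the 364 other noncoding rows tested, 4.95%, 9.89% and 0.824% were called. The median log2 fold change of the antisense features was 0.03 for nht1, 0.10 for the libraries labelled iec1 and 0.02 for iec5. The counts of calls rest on single libraries: 54 calls for nht1 became 31 on leaving out wild type replicate 1 and 30 on leaving out either nht1 library. The 125 calls for the libraries labelled iec1 became 83 on leaving out iec1 replicate 1, and the 13 for iec5 became 8 and 7 on leaving out iec5 replicate 1 or 2. In fits of the 2 groups alone the calls were 33 for nht1 and 7 for iec5. The method mattered too: DESeq2 called 37 features in nht1, 96 in the libraries labelled iec1 and 12 in iec5.

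**Figure D2:**
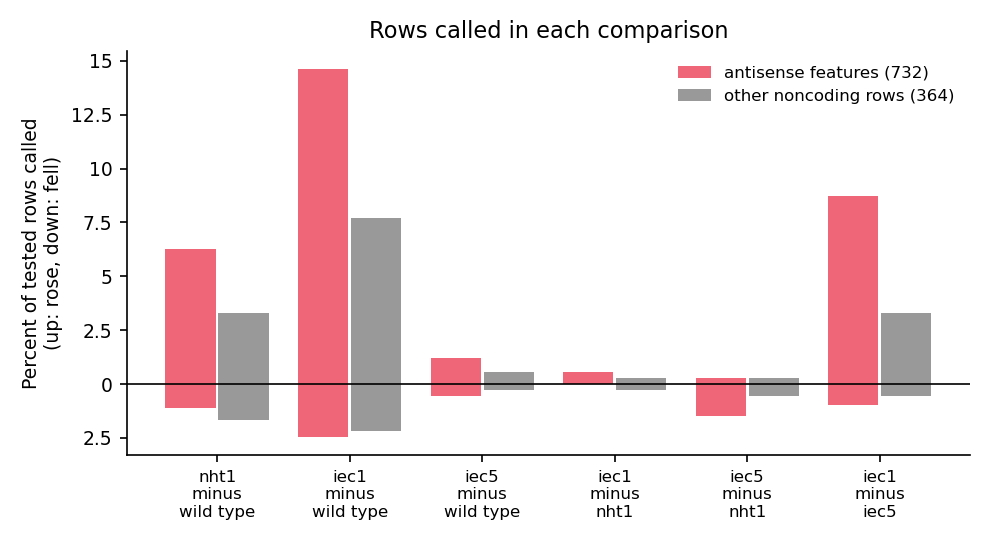
Percent of tested rows that rose (above 0) or fell (below 0) in each of 6 comparisons, for 732 antisense features and 364 other noncoding rows. The bars are highest for the libraries labelled iec1 against wild type, where 14.6% of the antisense features rose and 2.46% fell.

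The shares called are given by position on the gene. Over all noncoding rows they were 6.57% (nht1), 14.7% (libraries labelled iec1) and 1.46% (iec5), and several of the shares below lie near these. Features that span a gene were called in 9.38% (nht1), 24.0% (libraries labelled iec1) and 5.21% (iec5) of 96 tested. In iec5 these calls were 4 rises and 1 fall. Features inside a gene were called in 9.09%, 18.2% and 3.03% of 198 tested. Those reaching past the 3′ end were called in 5.88%, 13.5% and 0.588% of 170, and those past the 5′ end in 6.34%, 16.0% and 0.373% of 268. On chromosomes I, II and III, 16.3%, 17.5% and 18.1% of features were called in the libraries labelled iec1, and the 4 falls in iec5 all lie on chromosome II. No test of the difference between positions or chromosomes was run.

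The features called in all 3 comparisons with wild type, 9 that rose and 1 that fell, are given first. The comparisons share the wild-type libraries, so these calls are not independent of each other. Of all 1096 noncoding rows tested, 11 rose (1.0%) and 5 fell (0.456%) in iec5, so no more rows than these could be called in all 3. SPNCRNA.1292 (chromosome III, 2367506 to 2368757, plus strand) spans SPCC70.08c, annotated as a methyltransferase. Its CPM was 69.8 and 95.1 in wild type, 285 and 401.5 in nht1, 771 and 892 in the libraries labelled iec1, and 169 and 170 in iec5. Every library of the 3 other strains lay above both wild-type libraries, and the groups did not overlap. Naming by largest change required the libraries of a strain to lie on one side of wild type. The lack of overlap is thus no separate support, here or for other features so named. The log2 fold changes were 2.06 (SE 0.17), 3.34 (SE 0.18) and 1.04 (SE 0.17), with edgeR adjusted p of 1.25e-08, 4.73e-13 and 0.000685. SPNCRNA.793 (chromosome I, 2093398 to 2095721, plus strand) spans obr1, which encodes a quinone dehydrogenase. It had 456 and 599 CPM in wild type, 1257 and 1857 in nht1, 2054 and 2002 in the libraries labelled iec1 and 1179 and 1349 in iec5, again with no overlap between wild type and any other strain. It changed by 1.56 (SE 0.17), 1.94 (SE 0.17) and 1.26 (SE 0.17) on the log2 scale, with edgeR adjusted p of 4.44e-07, 6.64e-09 and 0.0001. These calls held without any 1 library.

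The other 7 features that rose in all 3 showed one order of sizes, with the libraries labelled iec1 highest and iec5 lowest among the fitted changes, though a difference between these strains was called for only some of them. SPNCRNA.560, inside the autophagy gene atg1801, rose from 7.55 and 7.95 CPM in wild type to 33.7 and 35.3 in nht1, 37.6 and 41.1 in the libraries labelled iec1 and 17.8 and 23.04 in iec5. SPNCRNA.1210, inside the cysteine desulfurase family gene SPCC777.03c, rose by 1.75 (SE 0.24), 2.26 (SE 0.24) and 0.98 (SE 0.25) on the log2 scale. SPNCRNA.1345, inside the N-acetyltransferase gene SPBC1271.07c, rose by 1.65 (SE 0.17), 2.29 (SE 0.17) and 1.01 (SE 0.17). A further feature on the same gene, SPNCRNA.1346, rose in nht1 (1.32, SE 0.22) and in the libraries labelled iec1 (2.07, SE 0.21), and its 0.45 (SE 0.22) in iec5 did not pass. The others were SPNCRNA.1213 over the dehydrogenase gene SPCC663.08c, SPNCRNA.728 over SPAC10F6.15, SPNCRNA.1419 inside saw1, a gene of DNA recombination, and SPNCRNA.615 over the NADPH dehydrogenase gene SPAC5H10.10. In iec5 the calls of 6 of the 9 rested on single libraries. Those of SPNCRNA.615 and SPNCRNA.1419 were lost on leaving out wild type replicate 1 or either iec5 library, and that of SPNCRNA.615 also on leaving out wild type replicate 2. For SPNCRNA.560 the libraries were wild type replicate 1 and iec5 replicate 2, and for SPNCRNA.1210 both of wild type and iec5 replicate 1. SPNCRNA.728 lost its call on leaving out iec5 replicate 1, and SPNCRNA.1213 on leaving out iec5 replicate 2. The call of SPNCRNA.1419 in nht1 depended in the same way on wild type replicate 1 and nht1 replicate 2.

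The feature that fell in all 3 was SPNCRNA.1307 (chromosome II, 83799 to 85528, plus strand), inside the arylsulfatase gene SPBPB10D8.02c. It had 83.9 and 89.0 CPM in wild type, 44.7 and 58.2 in nht1, 48.6 and 47.9 in the libraries labelled iec1 and 40.5 and 38.8 in iec5. All 6 other libraries lay below both wild-type libraries. The log2 fold changes were -0.75 (SE 0.18), -0.84 (SE 0.19) and -1.12 (SE 0.19), with edgeR adjusted p of 0.012, 0.00239 and 0.000685. The call in nht1 was lost (adjusted p up to 0.190) on leaving out nht1 replicate 1 or wild type replicate 2.

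**Figure D3:**
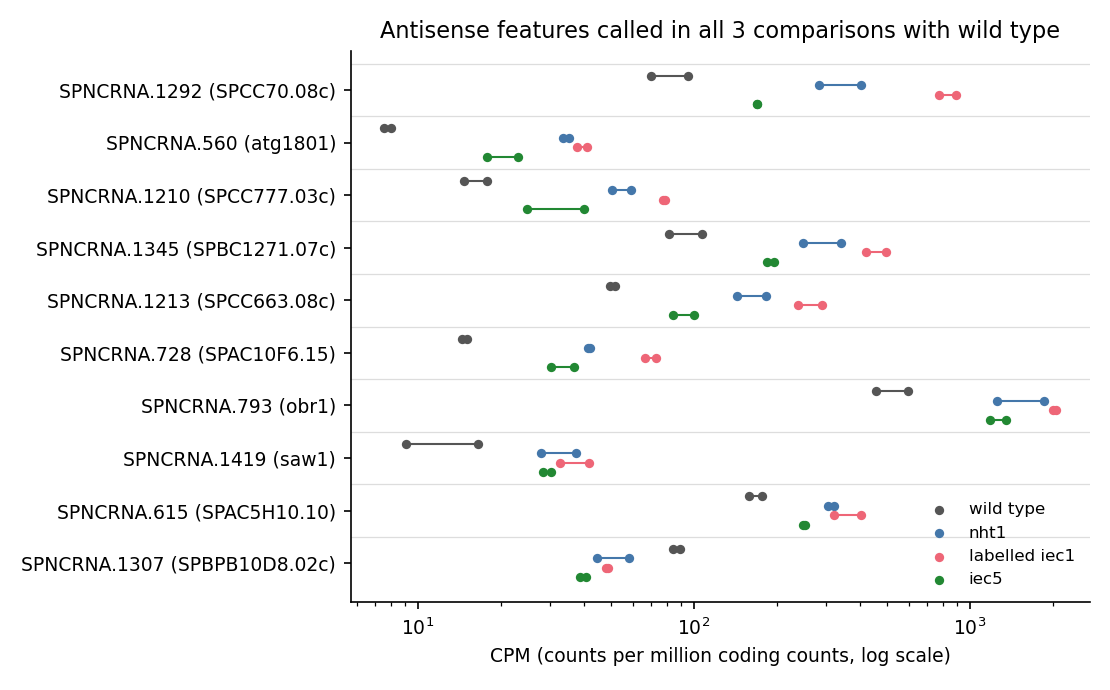
CPM of the 10 antisense features called in the same direction in all 3 comparisons with wild type (horizontal, log scale), with each library a point and the 2 libraries of a group joined by a line; the opposite gene is named in brackets. For 9 features every other library lies right of both wild-type libraries, and for SPNCRNA.1307 every one lies left. Features named for the largest changes of a comparison had to meet this.

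Other features were called both in nht1 and in the libraries labelled iec1, comparisons that share the wild-type libraries. SPNCRNA.1585 lies inside caf5, for a membrane transporter of the spermine family. It rose from 31.1 and 44.3 CPM in wild type to 151 and 184 in nht1 and 136 and 196 in the libraries labelled iec1, while its 51.7 and 77.3 in iec5 did not pass (edgeR adjusted p = 0.0878). SPNCRNA.1421, over the protein kinase gene ppk31, had 38.4 and 39.7 CPM in wild type, 100.3 and 113 in nht1, 253 and 215 in the libraries labelled iec1, and 38.2 and 35.6 in iec5. The iec5 libraries lay just below wild type and the nht1 libraries and those labelled iec1 above it, with log2 fold changes of 1.45 (SE 0.17) in nht1 and 2.58 (SE 0.17) in the libraries labelled iec1, and -0.08 (SE 0.18) in iec5. SPNCRNA.637, inside sif3, rose by 1.47 (SE 0.25) and 1.44 (SE 0.25) in nht1 and in the libraries labelled iec1. SPNCRNA.868, over the transporter gene mfc1, rose by 1.62 (SE 0.42) and 1.97 (SE 0.42) from 3.62 and 4.58 CPM in wild type. Its call in nht1 was lost on leaving out nht1 replicate 1 or either wild-type library. By contrast, SPNCRNA.987, over the start of the uncharacterised gene SPAC9E9.17c, was called against wild type only in the libraries labelled iec1. It had 0 counts in both wild-type libraries and 10 and 12 in the libraries labelled iec1 (edgeR adjusted p = 0.0024). That is at least 4.45-fold higher than a floor of 3 counts per wild-type library. Its 4 and 6 counts in nht1 and 5 and 8 in iec5 did not pass (edgeR adjusted p = 0.0588 and 0.123).

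Among the falls shared by the nht1 libraries and those labelled iec1, SPNCRNA.1041 lies over ure2, the nickel-dependent urease. It had 275 and 289 CPM in wild type, 170 and 143 in nht1, 155 and 177 in the libraries labelled iec1, and 198 and 252 in iec5. The wild-type values were highest, and the log2 fold changes were -0.85 (SE 0.15) in nht1 and -0.76 (SE 0.15) in the libraries labelled iec1. SPNCRNA.1233, over spp27, for a subunit of an RNA polymerase I activation factor, fell from 122 and 100.3 CPM to 67.9 and 66.2 in nht1 and 38.5 and 43.2 in the libraries labelled iec1, beside 109 and 110 in iec5. Either nht1 library or wild type replicate 1, when left out, ended its call in nht1. SPNCRNA.610, inside the 5-oxoprolinase gene SPAC11D3.15, fell by 1.01 (SE 0.21) and 1.93 (SE 0.22) on the log2 scale. SPNCRNA.1672, over the start of the centromere protein gene cnp3, had 9.66 and 6.72 CPM in wild type, 2.52 and 1.46 in nht1, 0.917 and 1.47 in the libraries labelled iec1 and 9.88 and 7.58 in iec5. Its call in nht1 (edgeR adjusted p = 0.0348) was lost on leaving out any 1 library of wild type, nht1 or iec5, and its call in the libraries labelled iec1 (edgeR adjusted p = 0.00387) was kept. SPNCRNA.802, over the zinc finger gene hpz2, had 9.96 and 7.03 CPM in wild type and 0.629 and 2.18 in nht1, a call lost on leaving out nht1 replicate 1 or wild type replicate 1. In the libraries labelled iec1 (2.75 and 2.35 CPM; edgeR adjusted p = 0.0474) leaving out any 1 library of wild type, iec1 or iec5 ended the call.

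In the libraries labelled iec1 SPNCRNA.674, over byr1, the MAP kinase kinase of the mating pathway, fell from 193 and 211 CPM to 115 and 130, a log2 fold change of -0.71 (SE 0.14; edgeR adjusted p = 0.00093). SPNCRNA.686, over mta1, for a methylthioadenosine phosphorylase, fell by 0.44 (SE 0.14) on the log2 scale there, a call lost on leaving out iec1 replicate 1, wild type replicate 2 or either iec5 library. It also fell by 0.48 (SE 0.14; edgeR adjusted p = 0.0374) in nht1, a call lost on leaving out any 1 library of wild type, nht1 or iec5. Beyond the feature that fell in all 3, the iec5 libraries had falls over 3 others. SPNCRNA.1320, over the formaldehyde dehydrogenase gene fmd2, had 34.4 and 46.5 CPM in wild type and 19.4 and 19.2 in iec5, and lost its call on leaving out wild type replicate 2 or either iec5 library. SPNCRNA.569, inside trm734, had 99.0 and 103 CPM in wild type and 56.7 and 65.0 in iec5, and its call did not outlast leaving out any 1 library of either group. The last, SPNCRNA.1487, is described with its locus.

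Sorted by the role of the opposite gene, most lists held few antisense features and few calls, set beside 6.57%, 14.7% and 1.46% over all noncoding rows. Of 7 features opposite genes that keep antisense RNA low, 1 rose in nht1 and 1 in the libraries labelled iec1, in both cases SPNCRNA.687 inside cph1, a partner of the Clr6 histone deacetylase. It had 34.4 and 29.6 CPM in wild type, 53.5 and 70.6 in nht1, 68.8 and 57.9 in the libraries labelled iec1 and 36.9 and 43.2 in iec5, and its call in nht1 was lost on leaving out nht1 replicate 2 or wild type replicate 2. Of 7 opposite genes of heterochromatin and RNA interference, SPNCRNA.771 over arb1, a partner of Argonaute, rose by 0.61 (SE 0.18; edgeR adjusted p = 0.0211) in the libraries labelled iec1, a call lost on leaving out iec1 replicate 2 or wild type replicate 1. The list used for stress held 5 opposite genes (gst1, nmt1, ntp1, caf5 and obr1). Of their features, 2 rose in nht1 (over obr1 and caf5). In the libraries labelled iec1 3 rose (also SPNCRNA.1222 over the glutathione transferase gene gst1), and in iec5 1 did (over obr1). The call of SPNCRNA.1222 (1.43, SE 0.39) was lost on leaving out iec1 replicate 2 or wild type replicate 2. Of 4 opposite genes of nitrogen starvation, 1 rose in the libraries labelled iec1, SPNCRNA.859 inside the ammonium transporter gene amt3, by 1.04 (SE 0.31). It was not called once any 1 library of either group was left out. Neither of the 2 features opposite genes of iron, phosphate and zinc uptake was called.

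Mating and meiotic genes are silenced in cells that grow in rich medium, and antisense RNA over some of them has been described. Of 7 features opposite mating genes, the nht1 libraries had 1 rise and those labelled iec1 had 2 rises and 1 fall (SPNCRNA.674, above). SPNCRNA.1026, inside the formin gene fus1, needed for cell fusion, had 55.9 and 70.6 CPM in wild type, 83.0 and 107 in nht1, 99.5 and 116 in the libraries labelled iec1 and 96.2 and 86.6 in iec5. Its call in nht1 (edgeR adjusted p = 0.0484) was lost on leaving out nht1 replicate 2, wild type replicate 1, iec1 replicate 2 or either iec5 library. The one in the libraries labelled iec1 (0.78, SE 0.18) was lost on leaving out iec1 replicate 2 or wild type replicate 1. SPNCRNA.675, over rgs1, a regulator of pheromone signalling, rose by 1.61 (SE 0.44) in the libraries labelled iec1, a call that rested on wild type replicate 2 and iec1 replicate 1. Of 41 tested features opposite genes with meiotic names, 1 rose in nht1 (2.44%), 6 in the libraries labelled iec1 (14.6%) and 0 in iec5, and none fell. The same shares of rises over all noncoding rows were 5.29%, 12.3% and 1.0%. The feature called in both was SPNCRNA.1180, inside rec11, for a meiotic cohesin subunit. It had 5.74 and 10.4 CPM in wild type, 17.6 and 19.3 in nht1 and 18.8 and 18.2 in the libraries labelled iec1, and each call was lost on leaving out wild type replicate 1 or either library of the strain compared. Others named by the same rule were SPNCRNA.1668 over mug147 (log2 fold change 1.20, SE 0.27), SPNCRNA.606 over isp3 (1.85, SE 0.41) and SPNCRNA.1435 over mug93 (0.97, SE 0.32), all in the libraries labelled iec1. These calls were lost on leaving out wild type replicate 1 (SPNCRNA.1668), iec1 replicate 2 (SPNCRNA.606) or any 1 library of either group (SPNCRNA.1435).

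Of 64 coding genes tested that are known to restrain antisense RNA, 1 rose in nht1 (cph1). In the libraries labelled iec1 there were 2 rises and 3 falls among air1, alp13, cph1, pst2 and swd1, and in iec5 there were 0 calls. Over all coding genes 3.14% rose and 0.989% fell in nht1 (4.13% called), 8.04% and 2.21% in the libraries labelled iec1 (10.3%) and 0.279% and 0.129% in iec5 (0.408%). Of 16 INO80 subunit genes tested, iec1 was the one called in the libraries labelled iec1 and iec5 the one called in the iec5 libraries.

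Antisense features and their opposite genes moved together. Among 747 opposite genes tested in the coding table, 42 rose and 8 fell in nht1, 97 and 12 did in the libraries labelled iec1, and 6 and 2 did in iec5. Of all 4652 coding genes tested, 3.14% rose and 0.989% fell in nht1. The shares were 8.04% and 2.21% in the libraries labelled iec1, and 0.279% and 0.129% in iec5. The 50 calls in nht1 became 18 to 25 on leaving out any 1 library of wild type or nht1, the 109 in the libraries labelled iec1 became 71 and 64 on leaving out wild type replicate 1 or 2, and the 8 in iec5 became 0 to 5 on leaving out any 1 library of wild type, nht1 or iec5. Over the 728 pairs with both rows tested, both rose in 31, 73 and 5 pairs and both fell in 6, 12 and 2. No pair had a rise on one side and a fall on the other. Of the features called, 53 of 54 had the sign of their opposite gene in nht1, 121 of 124 in the libraries labelled iec1 and 13 of 13 in iec5. Pearson's r of the log2 fold changes across pairs was 0.79, 0.86 and 0.67 (728 pairs), as a description: the pairs share libraries, and the rows of a pair share reads. The median absolute difference between the log2 fold changes of a pair was 0.07, 0.07 and 0.06. SPNCRNA.793 and obr1, for example, both changed by 1.94 on the log2 scale in the libraries labelled iec1.

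**Figure D4:**
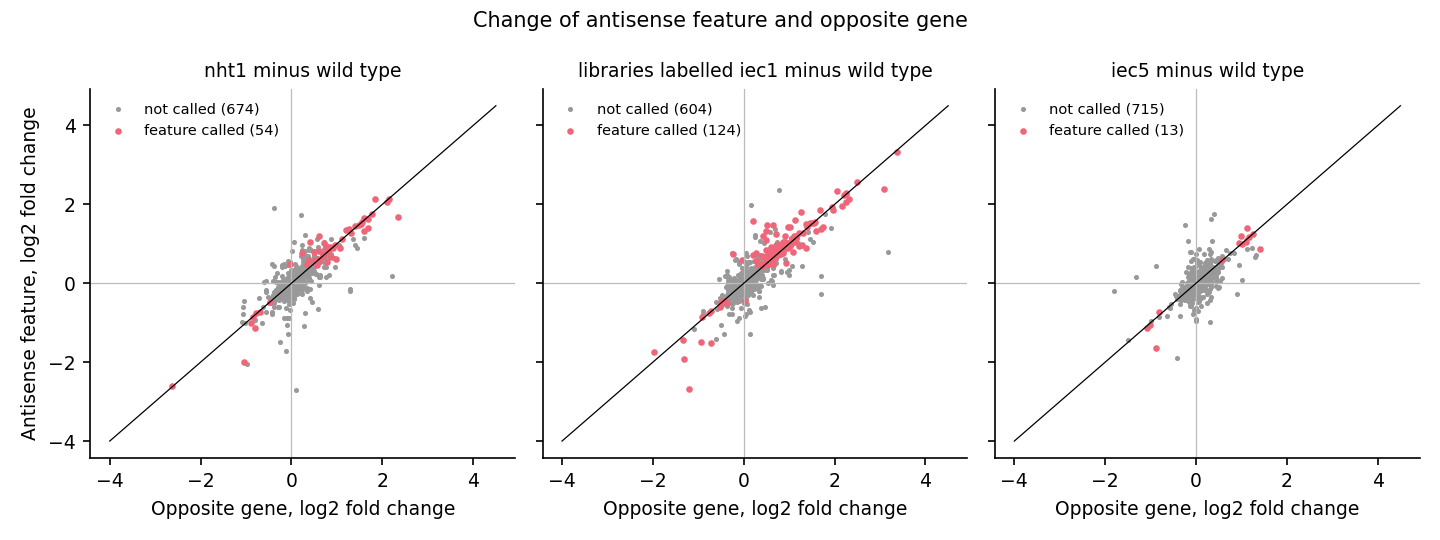
Log2 fold change of each antisense feature (vertical) against that of its opposite gene (horizontal) for 728 pairs, in 3 panels for the nht1, labelled iec1 and iec5 libraries against wild type. Red points are features called by edgeR; the diagonal marks equal change, and the red points lie along it in the upper right and lower left of each panel.

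Unequal change within a pair was tested on the ratio of feature to opposite gene with limma. At an adjusted p under 0.05 it called 1 of 728 pairs in nht1 (0.137%), 6 in the libraries labelled iec1 (0.824%) and 0 in iec5 (0.0%). An unadjusted p under 0.05 was found for 64, 70 and 48 pairs. Where most reads of a feature are also counted for its opposite gene, the ratio is held nearly constant. The test could hardly call such pairs, so the small number of calls does not show that antisense RNA moved with sense RNA. In the libraries labelled iec1 the ratio rose for SPNCRNA.1607, whose 5′ end overlaps the start of SPBPB7E8.02, a PSP1 family gene, by 486 of its 1948 bases. The feature had 9.06 and 8.56 CPM in wild type, 13.2 and 18.9 in nht1, 25.2 and 24.1 in the libraries labelled iec1 and 10.9 and 12.2 in iec5. Both libraries labelled iec1 were the highest of the 8. Its log2 fold change was 1.48 (SE 0.31), that of the gene was 0.52 (SE 0.19), and the ratio changed by 0.91 (SE 0.10; limma adjusted p = 0.0445). The ratio of SPNCRNA.1338, over the start of the transcription factor gene SPBC1773.12, rose by 0.75. It fell for SPNCRNA.1213 over SPCC663.08c (-0.68), SPNCRNA.1231 over SPCC285.04 (-1.01), SPNCRNA.636 over SPAC18B11.03c (-0.77) and SPNCRNA.605 over hhy1 (-0.59). The 1 pair called in nht1 was again SPNCRNA.1213 (-0.63). These calls were fragile: leaving out any 1 library left none in nht1, and in the libraries labelled iec1 it left 2 without either nht1 library and none without any other.

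Some antisense features held more reads than the density of their opposite genes would place there. After the values were seen, 35 features with at least 200 counts and at least 2 times the computed counts were set apart, and 8 of them rose in the libraries labelled iec1 (22.9%, beside 14.7% of all noncoding rows called), 1 fell in iec5 (2.86%, beside 1.46%) and 0 were called in nht1 (beside 6.57%). No test was run on this choice. Of the 35, only 13 were among the 633 features judged above, and the others did not meet the limits set there. The strongest was SPNCRNA.128, or rrk1 (chromosome III, 989942 to 990834, minus strand), annotated by that symbol and facing the proteasome gene pre10 over 208 of its 893 bases. It had 128763 counts over the 8 libraries where pre10 would give 453, a ratio of 284. Its CPM was 6038 and 5686 in wild type, 5052 and 4828 in nht1, 5596 and 4485 in the libraries labelled iec1 and 5458 and 4892 in iec5, and no strain was called against wild type. At 6565 CPM per kb in wild type it stood next to SPNCRNA.1376, inside the elongation factor gene tef103 (6633 CPM per kb, ratio of observed to computed counts 1.10). SPNCRNA.1511, over the end of the aminopeptidase gene ape2, had a ratio of 22.8 and 501 and 504 CPM in wild type. The libraries of a group were far apart in nht1 (292 and 530) and iec5 (327 and 534), and no change was called.

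Some antisense features contain small structured RNAs that have no row of their own in either table. Among 314 snoRNA, snRNA, tRNA, rRNA and RNase P genes of the RefSeq annotation with no such row, 9 overlap 5 antisense features. SPNCRNA.659, or snoZ, holds 5 small nucleolar RNA genes (snoZ3, snoZ4, snoZ5, snoZ7 and snoZ8) and had 4402 counts where psf3 would give 352, a ratio of 12.5. It had 190 and 203 CPM in wild type and 162 to 194 in the other libraries, with no call. SPNCRNA.1487 holds snR92, SPNCRNA.1650 holds snoR68, SPNCRNA.617 holds snR97 and SPNCRNA.847 holds snR191. The ratios of the last 3 were 1.54, 1.04 and 1.10. How much of the reads of these features comes from the small RNAs was not tested.

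SPNCRNA.1487 was the only one of the 130 features called in any comparison with wild type that was called as a rise in one and as a fall in another. It spans mag2, for a DNA-3-methyladenine glycosylase, on chromosome II (2120212 to 2121384, minus strand; mag2 at 2120231 to 2121050). Its CPM was 148 and 82.2 in wild type, 77.1 and 91.3 in nht1, 212 and 176 in the libraries labelled iec1 and 28.0 and 45.8 in iec5. The iec5 libraries were lowest and those labelled iec1 highest of all 8, while nht1 overlapped wild type. Against wild type the log2 fold change was -1.63 (SE 0.23; edgeR adjusted p = 0.00012) in iec5, 0.75 (SE 0.21; adjusted p = 0.0149) in the libraries labelled iec1 and -0.45 (SE 0.22; adjusted p = 0.261) in nht1. The rise was lost on leaving out iec1 replicate 1 or wild type replicate 2, and the fall in iec5 held without any 1 library. The difference between the libraries labelled iec1 and iec5 was itself called, at 2.38 on the log2 scale.

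Nearly all reads of SPNCRNA.1487 lay outside its opposite gene. Of its 2558 counts over the 8 libraries, mag2 held 62, so 97.6% fell in the 334 bases past the 3′ end of mag2 or the 19 bases before its 5′ end. The printed 300 bases are the far part of that stretch, and 144 of them are snR92. The next gene on the minus strand, SPBC23G7.10c, for a flavin oxidoreductase, lies 675 bases beyond the 3′ end of the feature. It had 13.0 and 18.6 CPM in wild type, 28.6 and 37.8 in nht1, 53.2 and 74.9 in the libraries labelled iec1 and 1.65 and 4.08 in iec5. It thus rose by 2.03 (SE 0.29; adjusted p = 0.000198) in the libraries labelled iec1, fell by 2.42 (SE 0.42; adjusted p = 0.0101) in iec5 (a call lost, at adjusted p 0.0615 to 0.182, on leaving out either wild-type library or iec5 replicate 1), and its 1.07 (SE 0.30; adjusted p = 0.0566) in nht1 did not pass. On the other side, the 3′ end of rpt6, for a proteasome subunit and also on the minus strand, lies 59 bases from the 5′ end of the feature. The rpt6 gene was called in none of the 3. It was examined, as SPBC23G7.10c was, after the values of SPNCRNA.1487 were seen.

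**Figure D5:**
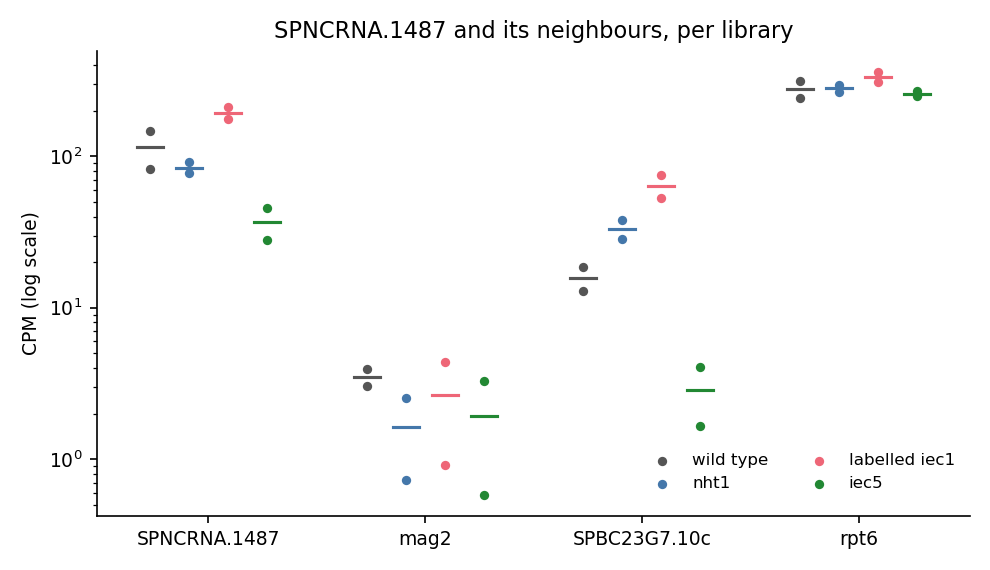
CPM per library (vertical, log scale) of SPNCRNA.1487, its opposite gene mag2 and the neighbours SPBC23G7.10c and rpt6, with points for libraries and a bar for the mean of each group. For SPNCRNA.1487 and SPBC23G7.10c the iec5 points are lowest and the points labelled iec1 highest, while mag2 stays under 5 CPM and the groups of rpt6 lie close together.

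Compared with each other, the 3 strains gave most calls between the libraries labelled iec1 and iec5. There 64 features were higher and 7 lower in the libraries labelled iec1 (6.93% and 0.821% of all noncoding rows, 7.76% called, beside 9.70% of the features). In place of 71 calls, 40 and 43 were left on leaving out iec1 replicate 1 or 2, and 32 and 35 on leaving out iec5 replicate 1 or 2. The largest difference was that of SPNCRNA.1672 over cnp3, with a log2 difference of -2.77 (SE 0.63; edgeR adjusted p = 0.00507). It was not called on leaving out iec1 replicate 1 or iec5 replicate 1. Its level in the libraries labelled iec1 was near the floor of 3 counts, so the size of this difference is uncertain. Next came SPNCRNA.1421 over ppk31, higher at 2.66 (SE 0.17). Between the libraries labelled iec1 and nht1, 4 were higher and 0 lower (0.456% and 0.0912% of all noncoding rows, 0.547% called): SPNCRNA.1292 (1.28, SE 0.16), SPNCRNA.1487 (1.20, SE 0.22), SPNCRNA.1421 (1.13, SE 0.15) and SPNCRNA.1213 (0.71, SE 0.15). DESeq2 called 5 there, and 67 features had an unadjusted p under 0.05. On leaving out nht1 replicate 1 only 2 were called, without SPNCRNA.1487 and SPNCRNA.1213, and SPNCRNA.1213 was also lost on leaving out iec1 replicate 2. Between iec5 and nht1, 2 were higher and 11 lower in iec5 (0.274% and 1.19% of all noncoding rows, 1.46% called), among them SPNCRNA.1421 (-1.53, SE 0.17) and SPNCRNA.1585 (-1.37, SE 0.20), while SPNCRNA.1168 over the histone acetyltransferase gene naa40 was higher (1.09, SE 0.25), a call lost on leaving out either nht1 library or iec5 replicate 1. With the RLE size factors of the coding table this split was 2 higher and 5 lower, in a fit of the 2 groups alone 8 higher and 18 lower, with no filter on low counts 6 higher and 15 lower, and with DESeq2 3 higher and 5 lower. In place of 13 calls there were 8 and 2 on leaving out nht1 replicate 1 or 2, and 5 and 7 on leaving out iec5 replicate 1 or 2.

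Antisense features face 2 of the 3 genes named in the strain labels. SPNCRNA.1010 (chromosome I, 4654243 to 4654578, minus strand) overlaps the 3′ end of iec1 by 145 of its 336 bases. It had 6.64 and 5.50 CPM in wild type, 7.23 and 10.9 in nht1, 23.4 and 19.7 in the libraries labelled iec1 and 4.94 and 7.29 in iec5. It rose with iec1 in the libraries labelled iec1, by 1.81 (SE 0.38; edgeR adjusted p = 0.0014; groups not overlapping) beside 1.25 (SE 0.21) for iec1. SPNCRNA.554 (chromosome I, 1219252 to 1220071, plus strand) overlaps the 3′ end of nht1 by 405 of its 820 bases and had 42.0 and 33.3 CPM in wild type and 35.5 and 41.8 in the nht1 libraries. Its log2 fold change of 0.04 (SE 0.22; adjusted p = 0.960) did not pass, nor did the -0.60 (SE 0.24) of nht1 itself. Another INO80 gene, ies4, faces SPNCRNA.694, which was not called against wild type in any strain, and no antisense feature faces iec5.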

How the data were processed

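RNA-seq counts were analysed from 8 libraries in 4 groups of 2, grouped by the labels. Per the labels' protocols, MasterPure RNA was depleted with RiboMinus and made into NEBNext Ultra II Directional libraries. Per the submitters' processing notes, the authors used HISAT2 2.1.0, featureCounts 1.6.1, DESeq2 1.28.0 and build ASM294v2. The labels and notes do not say how strand was set in counting. The values are the authors' deposited raw counts per row, in 1 coding and 1 noncoding table, each row counted from its start to its end.

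The members, gene lists and tests were chosen with earlier results of these data known. Rows passing the default filter of edgeR (4652 coding, 1096 noncoding) were tested with edgeR 4.0.16 (R 4.3.3) in 1 fit of all libraries, with coding library sizes and TMM factors for both tables. The biological coefficient of variation was 11.9% (coding) and 13.1% (noncoding). The variance between replicates of the features was 4.37 to 4.87 times that of counting error (chi-square per degree of freedom). Ratios used limma 3.58.1 on the difference in log2 CPM (prior count 2). Standard errors are approximate. The tests were also run on simulated data, with rows drawn independently and ratio shifts larger than those called here. This does not check them for pairs that share reads. Features were named by size of change among calls, by list, by density and by symbol. The largest changes of a comparison were named only if both libraries of a strain lay on the same side of both libraries compared. Alternatives were DESeq2 1.42.0, other scalings, no filter, a replicate block, fits of 2 groups, a fold minimum and leaving out each library. Tables and figures used Python 3.11.15 and matplotlib 3.10.9.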

Additional observations from a re-analysis of the deposited data

How the results depend on the processing

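Over the alternatives, no named feature reversed, 1584 values kept their direction and their side of the threshold, and 235 kept their direction but were no longer called. Counts of antisense features called (main, then range leaving out 1 library) were 54 (30 to 54) for nht1, 125 (83 to 126) for the libraries labelled iec1 and 13 (7 to 14) for iec5 against wild type, 4 (2 to 6) for iec1 against nht1, 13 (2 to 14) for iec5 against nht1 and 71 (32 to 78) for iec1 against iec5. Fits of the 2 groups alone gave 33 (nht1), 7 (iec5) and 26 (iec5 against nht1). A log2 fold change of at least 1 left 24, 55, 5 and 29 for nht1, iec1, iec5 against nht1 and iec1 against iec5. For iec5 against nht1, RLE gave 7, own scaling of the noncoding rows 8 (2 higher, 6 lower), no filter 21 and DESeq2 8. Opposite genes called were 50 (18 to 60), 109 (64 to 111) and 8 (0 to 10), and 21, 49 and 5 with the fold minimum. Ratio calls were 1 (0 to 0), 6 (0 to 2) and 0, with 0 and 0 in fits of 2 groups and 0 and 1 with a difference of at least 1. The causes were not tested.

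Replicate numbers are only shared numbers: same-numbered libraries deviated together with r of 0.00827 to 0.182 between groups. A replicate block gave 80, 154 and 18 antisense features against wild type, 20 for iec1 against nht1, 36 for iec5 against nht1 and 103 for iec1 against iec5, with 77 opposite genes for nht1 and 14 for iec5, and ratio calls of 0 (nht1) and 1 (iec1).

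With 2 libraries a group and 3 counts worth about 1 CPM, features under a few CPM could not be resolved.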
